A study of Mus musculus with 12 samples.

Results

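The genes described here are 10 placental members of the mouse prolactin family: Prl8a2, Prl7b1, Prl2a1, Prl7d1, Prl8a9, Prl7c1, Prl4a1, Prl8a1, Prl6a1 and Prl2b1. They were taken by name, as every probe set to which the platform annotation gives 1 of these symbols and no other, which left 12 probe sets of the 45037 that are not array controls and 10 of 18193 annotated genes. The members were chosen on their lung values in these arrays, pregnant against virgin. Every lung value of a member is therefore given as a description, with no test, and only the pregnancy difference in liver, which the choice did not use, was tested. That test used a spread estimated over all 12 arrays, so the liver intervals and p-values also take in the spread of the lung pools.

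The study compared gene expression in lung and liver of virgin and pregnant mice. All mice were female NOD/SCID animals, a strain that lacks mature T and B lymphocytes, bred in house and 8 to 10 weeks old when the experiments began. Pregnant animals were timed by vaginal plug and taken on day 16 of gestation. Each array held RNA pooled from 2 mice, and each of the 4 groups (lung or liver, of virgin or of pregnant mice) had 3 arrays, so a group rests on 3 pools. The labels name the pools as separate, and the SDs and p-values measure the spread between pools. The number of arrays limits the precision.

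Prolactin is a pituitary hormone that signals through a cytokine receptor and the JAK2 and STAT5 proteins. In rodents the ancestral gene has been duplicated many times into a cluster of relatives, most of which are made by trophoblast cells of the placenta or by the decidua, the maternal lining of the pregnant uterus. Some relatives bind the prolactin receptor, and others act on blood vessels or immune cells without it.

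The labelled tissues matched their markers. The mean log2 level of 13 lung epithelium genes was 11.8 to 11.9 on the lung arrays and 5.79 to 5.94 on the liver arrays, and that of 10 hepatocyte genes was 4.17 to 4.65 in lung and 13.3 to 13.5 in liver. Array medians lay between 4.49 and 4.56. The poly-A spike-in controls averaged 11.8 to 12.3 on 10 arrays but 4.95 on virgin liver pool 3 and 5.33 on pregnant liver pool 3. The liver differences of Prl8a9, Prl6a1, Prl8a2 and Prl8a1 and the number of genes called in liver are therefore also given without these arrays. The values are log2 levels without detection calls, so a probe set was called dim where it lay under its array's median. A level depends on the probes as well as on the transcript, so levels are compared between groups within a probe set and not between genes.

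All 10 genes lie on mouse chromosome 13, and each has prolactin family genes as its nearest protein-coding neighbours on both sides (RefSeq, GRCm38.p6). Prl8a2 sits between Prl6a1 and Prl2b1, Prl7b1 between Prl8a1 and Prl7a1, and Prl2a1 between Prl7c1 and Prl2c1. Promoters, taken as 250 bases before to 50 bases after the RefSeq start of transcription, were matched for 8 of the 10 genes. The promoters of Prl2a1, Prl4a1 and Prl8a9 are shown because the first of these genes was higher in pregnant lung, the second differed little in either tissue, and the third showed its largest difference in liver, while all carry the same TATA-type stretch. It is TATATAGGAG, in capitals, the longest run of bases that these promoters share, and it begins 40, 30 and 27 bases before the start in Prl2a1, Prl4a1 and Prl8a9. The windows are chr13:27801405-27801704 on the plus strand for Prl2a1, chr13:28015962-28016261 on the plus strand for Prl4a1 and chr13:27564557-27564856 on the minus strand for Prl8a9.
Prl2a1: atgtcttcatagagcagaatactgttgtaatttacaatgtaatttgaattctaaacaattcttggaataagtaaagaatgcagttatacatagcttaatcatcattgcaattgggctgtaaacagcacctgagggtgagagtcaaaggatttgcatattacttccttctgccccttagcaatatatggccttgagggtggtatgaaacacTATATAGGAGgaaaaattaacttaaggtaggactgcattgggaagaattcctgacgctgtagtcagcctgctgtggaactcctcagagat
Prl4a1: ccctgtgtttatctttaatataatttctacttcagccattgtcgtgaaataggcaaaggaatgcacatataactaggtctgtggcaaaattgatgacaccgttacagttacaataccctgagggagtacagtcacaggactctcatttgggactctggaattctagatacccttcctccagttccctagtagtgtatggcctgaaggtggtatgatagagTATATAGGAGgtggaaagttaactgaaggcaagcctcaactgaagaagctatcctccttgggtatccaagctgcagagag
Prl8a9: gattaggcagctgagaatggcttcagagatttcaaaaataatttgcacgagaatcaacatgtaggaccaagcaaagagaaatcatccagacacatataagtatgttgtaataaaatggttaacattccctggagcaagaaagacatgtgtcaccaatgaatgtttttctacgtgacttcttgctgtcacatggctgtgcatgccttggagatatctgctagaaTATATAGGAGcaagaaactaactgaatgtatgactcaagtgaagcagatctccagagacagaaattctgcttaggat

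The stretch, searched on both strands and found from these sequences, was in 5 of the 8 member genes with a promoter (Prl2a1, Prl8a9, Prl4a1, Prl8a1 and Prl2b1) and in 5 of 14 other prolactin family genes. Among all genes it was in 19 of 27025, or 0.070%, and 9 of those 19 lay outside the family. In the 10 family genes it began between 27 and 48 bases before the start. The shorter TATATA, which the longer stretch contains, was in 7 of 8 member genes and in 6.66% of all genes, and Prl7c1 was the member without it. TTCNNNGAA, the form of site that STAT proteins bind, was in 3 of 8 (Prl2a1, Prl8a1 and Prl6a1) and in 9.55% of all genes. The longer stretch was thus in Prl2a1, which was higher in pregnant lung, and in Prl8a9, Prl4a1, Prl8a1 and Prl2b1, whose lung groups overlapped. A match is only a description of these letters.

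Prl8a2, Prl7b1 and Prl2a1 were higher on every pregnant lung array than on any virgin one, Prl7d1 was higher on some, and the other 6 genes differed little. Of the 12 probe sets, 3 had all pregnant arrays above all virgin arrays, against 7.24% of all probe sets, and none had them all below, against 8.32%. Since the lung values chose the members, nothing is read from that share. The remaining 9 probe sets overlapped between the groups. Over all probe sets 28, or 0.0622%, were at least 1 log2 unit higher in pregnant lung, and 3 of them were those of Prl8a2, Prl7b1 and Prl2a1. In bulk tissue, more cells of a type and more RNA per cell cannot be told apart.

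Prl8a2, probe set 1448608_at, encodes decidual prolactin-related protein, a product of the decidua. Its log2 levels in virgin lung were 2.87, 2.98 and 2.85, and in pregnant lung they were 5.65, 5.57 and 5.51. The pregnant pools lay close together and far above the virgin ones. Group means were 2.90 ± 0.074 and 5.58 ± 0.069 (SD, n = 3), a difference of 2.68 on the log2 scale or 6.40-fold. This was the largest lung difference of all 18193 genes, whose median was -0.01. In virgin lung 19.8% of probe sets on the same array lay below this one on average, and in pregnant lung 62.8%.

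In liver Prl8a2 read 3.51, 3.44 and 3.07 in virgin and 3.65, 3.23 and 3.59 in pregnant pools. These groups overlapped. Their means were 3.34 ± 0.24 and 3.49 ± 0.23 (SD, n = 3), and the fitted difference was 0.15 with a 95% interval from -0.13 to 0.44 (limma, adjusted p = 0.572 over all 45037 probe sets). The order of the group means was pregnant lung, pregnant liver, virgin liver, virgin lung. Pregnant lung stood apart from the liver groups, the liver groups overlapped each other, and virgin lung lay below both. The lung minus liver difference in level was thus -0.44 in virgin and 2.09 in pregnant mice.

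**Figure D1:**
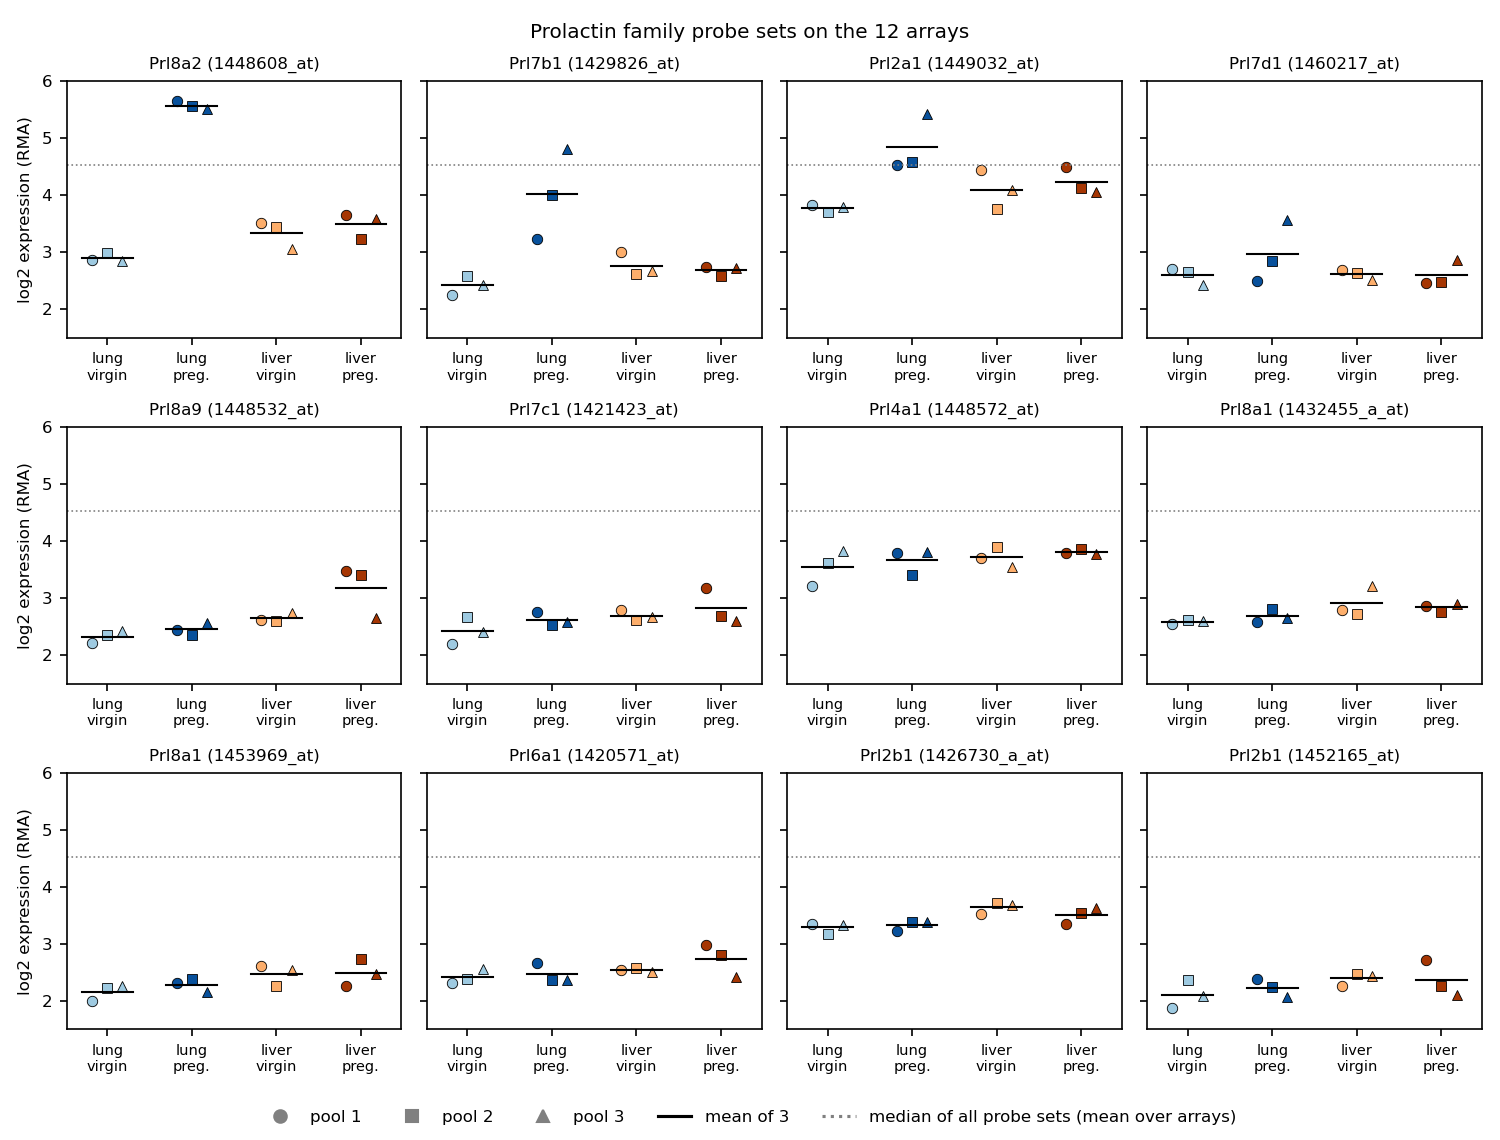
Log2 level of each of the 12 member probe sets (panels) in the 4 groups (horizontal axis); markers are the 3 pools, bars are group means and the dotted line is the median of all probe sets. Prl8a2 is tightly grouped in pregnant lung near 5.58, Prl7b1 and Prl2a1 are spread there, and most other panels are level.

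Prl7b1, probe set 1429826_at, encodes prolactin-like protein N, a trophoblast product. It read 2.26, 2.59 and 2.43 in virgin lung and 3.24, 4.01 and 4.81 in pregnant lung. The pregnant pools did not overlap the virgin ones but differed widely among themselves, with pool 1 the lowest and pool 3 the highest. Means were 2.43 ± 0.17 and 4.02 ± 0.79 (SD, n = 3), a difference of 1.59 on the log2 scale or 3.02-fold, which was the fifth largest among all genes. The share of probe sets below it was 8.51% in virgin and 41.1% in pregnant lung, with 27.5% and 53.8% as the extremes of the pregnant pools.

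Prl7b1 in liver read 3.01, 2.62 and 2.67 in virgin and 2.74, 2.58 and 2.73 in pregnant pools. The liver groups overlapped. The fitted liver difference was -0.09 with a 95% interval from -0.65 to 0.48 (limma, adjusted p = 0.902). That interval also takes in the spread of the pregnant lung pools. In the gene tests the SE of this difference was 0.27 with all arrays and 0.13 with the liver arrays alone (limma, adjusted p over all genes = 0.755 with the liver arrays alone). Pregnant lung lay above every other group, and the other 3 groups were ordered virgin liver, pregnant liver and virgin lung, each overlapping its neighbour. Virgin lung and virgin liver did not overlap, with a lung minus liver difference in level of -0.34.

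Prl2a1, probe set 1449032_at, encodes prolactin-like protein M, also of trophoblast. Its levels were 3.83, 3.70 and 3.80 in virgin lung and 4.54, 4.58 and 5.43 in pregnant lung. Pool 3 again stood above the other pregnant pools, and all of them lay above the virgin range. Means were 3.78 ± 0.065 and 4.85 ± 0.50 (SD, n = 3), a difference of 1.07 on the log2 scale or 2.10-fold. It ranked 14 among all genes by lung difference.

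In liver Prl2a1 read 4.44, 3.76 and 4.10 in virgin and 4.49, 4.14 and 4.06 in pregnant pools, and the groups overlapped. The fitted liver difference was 0.13 with a 95% interval from -0.33 to 0.59 (limma, adjusted p = 0.794). Pregnant lung exceeded pregnant liver by 0.62 with no overlap. The liver groups overlapped each other, and virgin liver overlapped virgin lung, the lowest group.

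Prl7d1, probe set 1460217_at, encodes proliferin-related protein, a placental factor that inhibits the growth of blood vessels. It read 2.71, 2.65 and 2.43 in virgin lung and 2.50, 2.86 and 3.56 in pregnant lung. The groups overlapped, with pregnant pool 3 the highest and pool 1 within the virgin range. The lung difference of 0.38 became 0.08 without pregnant lung pool 3. In liver it read 2.68, 2.64 and 2.51 in virgin and 2.46, 2.48 and 2.87 in pregnant pools, a difference of -0.01.

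**Figure D2:**
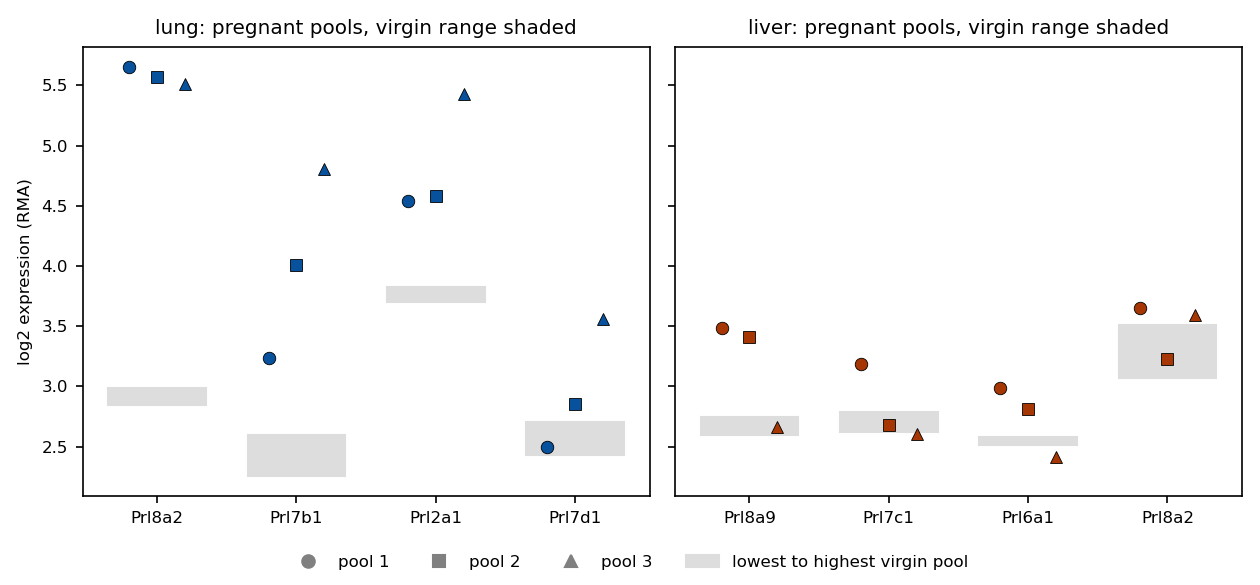
Log2 level of the 3 pregnant pools (points) over the range of the virgin pools (shading) for the 4 members with the largest lung difference in lung, and for the 4 with the largest liver difference in liver. In lung, pool 3 is the highest for Prl7b1, Prl2a1 and Prl7d1 but the lowest for Prl8a2; in liver, pool 3 of Prl8a9 lies at 2.66, within the virgin range.

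Pregnant lung pool 3 stood at least 0.7 log2 units above both other pregnant lung pools for Prl7b1, Prl2a1 and Prl7d1, which were 3 of 128 such probe sets (0.284% of all). Prl8a2 was not among them, and it was lowest in that pool. Prl7d1 lay close to the limit, at 3.56 in pool 3 against 2.86 in pool 2. Lung values chose the members, so nothing is read from the share of 0.284%. Without pool 3 the lung differences were 1.20 for Prl7b1 and 0.78 for Prl2a1, against 2.71 for Prl8a2. Pool 3 was also the lung array with the highest hepatocyte mean, 4.65 against 4.17 to 4.28 on the other lung arrays, and its albumin (Alb) level was 7.22 against 4.85 and 5.06 in the other pregnant pools. The part of this in the result was not tested. Pool 1 stood at least 0.7 below the other pregnant pools for Prl7b1, as for 53 probe sets in all (0.118%).

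Prl8a9, probe set 1448532_at, encodes a prolactin-like protein of the C group, made by the placenta. It read 2.22, 2.35 and 2.42 in virgin lung and 2.44, 2.36 and 2.57 in pregnant lung, which overlapped, with a difference of 0.13. In liver it read 2.62, 2.59 and 2.74 in virgin and 3.48, 3.41 and 2.66 in pregnant pools. Pregnant pools 1 and 2 lay well above the virgin range and pool 3 lay within it. Means were 2.65 ± 0.079 and 3.19 ± 0.46 (SD, n = 3).

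The liver difference of Prl8a9 was 0.53 with a 95% interval from 0.17 to 0.89 and missed the threshold of 0.05 after adjustment (limma, adjusted p = 0.0696 over all probe sets and 0.0526 over all genes). The result turned on pregnant liver pool 3, which also lacked the spike-in signal and was at least 0.7 lower than its fellow pools for 181 probe sets (0.402%). Without that array the difference was 0.79 (limma, adjusted p over all genes = 0.000235), and without either liver pool 3 it was 0.84 (limma, adjusted p = 0.000557). Without pregnant liver pool 1 it was 0.38 (limma, adjusted p = 0.191). Even in pregnant liver the probe set stayed dim, with 23.1% of probe sets below it.

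None of the 12 probe sets was called in liver at an adjusted p under 0.05 by limma, against 8.16% of all probe sets, and only Prl8a9 had an unadjusted p under 0.05. The other 11 had adjusted p-values from 0.475 to 0.985. Their 95% intervals for the liver difference ran from -0.65 to 0.59 at the extremes, and each included 0. The narrowest, that of Prl2b1 (1426730_a_at), ran from -0.36 to 0.09. None of the 12 had all pregnant liver arrays above or all below the virgin ones, which 10.8% and 11.8% of all probe sets did.

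**Figure D3:**
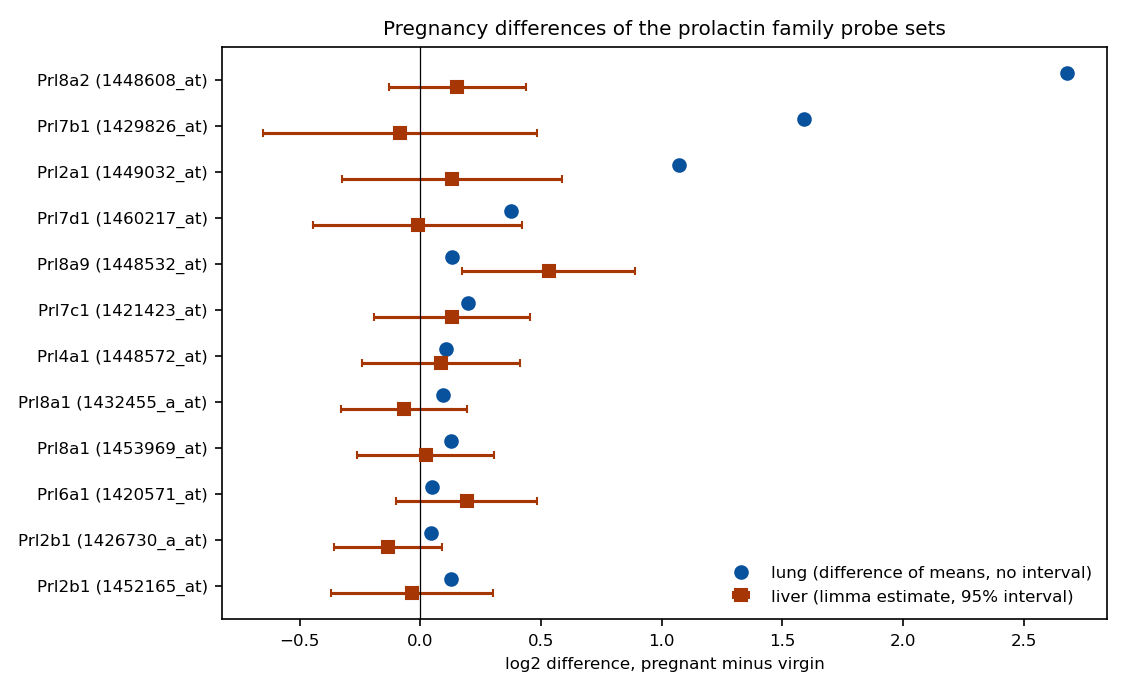
Pregnant minus virgin difference in log2 level for the 12 member probe sets in lung (points, description only) and in liver (points with the 95% interval of the limma fit). Prl8a2, Prl7b1 and Prl2a1 lie at 2.68, 1.59 and 1.07 in lung, and every liver interval except that of Prl8a9 includes 0.

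The other members had the following values. Prl7c1 (1421423_at), which encodes prolactin-like protein O, differed by 0.20 in lung and 0.13 in liver. Prl4a1 (1448572_at), which encodes prolactin-like protein A, a trophoblast factor shown in rat to act on natural killer cells, had virgin and pregnant means of 3.56 and 3.66 in lung and 3.72 and 3.81 in liver. Prl6a1 (1420571_at), which encodes prolactin-like protein B, differed by 0.05 in lung and 0.19 in liver. Its pregnant liver pools read 2.98, 2.81 and 2.42, against a virgin liver range of 2.51 to 2.58. Without pregnant liver pool 3 its liver difference was 0.35 (limma, adjusted p over all genes = 0.0636). Without both liver pool 3 arrays it was 0.34 (limma, adjusted p = 0.125).

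Prl8a1 and Prl2b1 each had a pair of probe sets. Those of Prl8a1, a gene of the C group, differed by 0.09 (1432455_a_at) and 0.13 (1453969_at) in lung and by -0.07 and 0.02 in liver. Those of Prl2b1, which encodes prolactin-like protein K, differed by 0.04 (1426730_a_at) and 0.13 (1452165_at) in lung and by -0.13 and -0.03 in liver. All of these overlapped between virgin and pregnant pools in both tissues.

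Over the 12 probe sets the lung difference ranged from 0.04 to 2.68 with a median of 0.13, beside -0.0043 over all probe sets. All 12 were above 0, against 48.8% of all probe sets. Since the lung values chose the members, nothing is read from that count. The liver difference ranged from -0.13 to 0.53 with a median of 0.05, beside 0.0014 over all probe sets. In liver 7 of 12 were above 0, against 50.2% of all probe sets. Only in pregnant lung did a member exceed the median of its array: Prl8a2 and Prl2a1 on 3 arrays each and Prl7b1 on 1. The probe sets of the remaining 7 genes did so on no array.

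**Figure D4:**
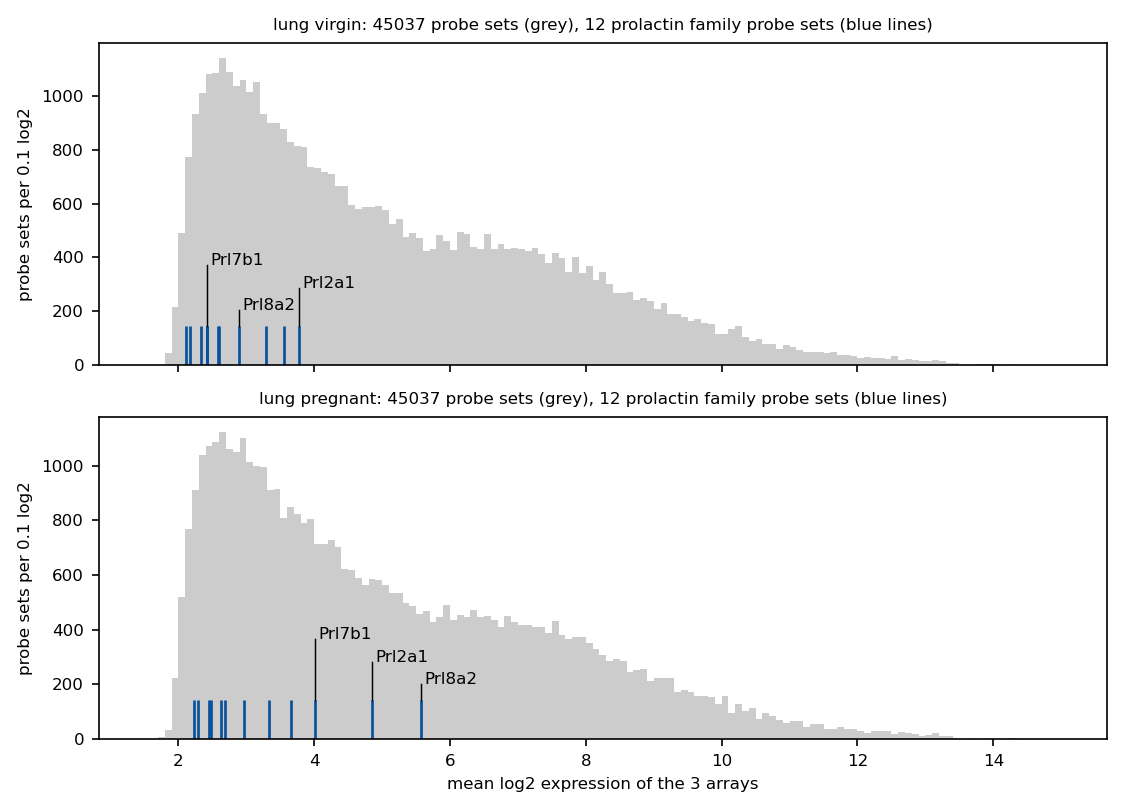
Histograms of the log2 level of all 45037 probe sets in virgin lung and in pregnant lung (group means), with vertical lines at the 12 member probe sets. In virgin lung all lines lie between 2.11 and 3.78, and in pregnant lung those of Prl8a2 and Prl2a1 reach 5.58 and 4.85.

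In virgin mice all 12 probe sets had a lower mean in lung than in liver, with a median difference of -0.32, and 6 did not overlap (35.1% of all probe sets had every virgin lung array below every virgin liver array). Dim probe sets as a whole read lower in lung. Among the 18097 with a mean under 4 over the 12 arrays, the median virgin lung minus liver difference was -0.149 and 72.2% were negative, and the 10th percentile of an array was 2.47 to 2.50 in lung and 2.59 to 2.63 in liver. In pregnant mice 3 probe sets (Prl8a2, Prl7b1 and Prl2a1) had every lung array above every liver array, against 28% of all probe sets. Prl8a9 had every lung array below, as 36.7% of all probe sets did, by 0.73 on average, and the other 8 overlapped.

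No other prolactin family gene was called. Of 17 listed, 8 were measured by 10 probe sets with a single symbol, 0 were called in lung or liver (limma), and 0 had an unadjusted p under 0.05 in either tissue. Over all genes 0.258% were called higher and 0.335% lower in lung, and 6.02% and 7.62% in liver. All 10 probe sets overlapped between virgin and pregnant pools in both tissues, and their lung differences ran from -0.17 to 0.15. Over all probe sets, 7.24% had all pregnant arrays above and 8.32% all below the virgin ones in lung, and 10.8% and 11.8% in liver. The members were set apart from these genes on lung values, so nothing is read from their lung results. The smallest p-values in lung were those of Prl8a8 at -0.17 (limma, adjusted p = 0.820) and Prl, the pituitary hormone itself, at 0.12 (limma, adjusted p = 0.831). In liver the smallest p-values were those of Prl7a1 and Prl5a1, at -0.09 and -0.08. The other 9 listed genes (Prl2c1 to Prl2c5, Prl3b1 and Prl3d1 to Prl3d3) were not analysed here. Family probe sets with several symbols stood for no gene and are described with the results flagged for a closer look.

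Of 9 genes of prolactin and growth hormone receptor signalling, 8 were measured; the prolactin receptor gene Prlr was not analysed here. None was called in lung, where 0.258% of all genes were called higher and 0.335% lower (limma; 2 had an unadjusted p under 0.05), with Socs3, a feedback inhibitor of cytokine signalling, at 0.51 (adjusted p = 0.120) and Ghr, the growth hormone receptor, at -0.33 (adjusted p = 0.120). In liver, where 6.02% of all genes were called higher and 7.62% lower, 2 rose. Ghr was 12.16 in virgin and 13.19 in pregnant liver, a rise of 1.03 ± 0.084 (SE; limma, adjusted p = 1.78e-06). Taken as the mean of all its probe sets, it rose by 1.60 (limma, adjusted p = 9.14e-08). Cish, a STAT5 target that dampens the signal, rose by 0.54 (limma, adjusted p = 0.0217), but missed the threshold without pregnant liver pool 2, at 0.48 (limma, adjusted p = 0.0770). Without virgin liver pool 2 it rose by 0.32 (limma, adjusted p = 0.0479). No member was called on the same liver arrays. With 8.16% of all probe sets called there, 0 of 12 lies near that share. Nothing about the members is read from the contrast.

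Genes of the cells that normally make these transcripts were compared in the same lungs. Of 34 trophoblast genes 29 were measured, and 0 were called in lung or in liver (limma; 2 had an unadjusted p under 0.05 in each). Their median lung difference was 0.02, beside -0.01 over all genes, and 5 had all pregnant lung arrays above all virgin ones and 2 all below (8.06% and 10.4% of all genes). In virgin lung 24 of the 29 had a mean below the array medians and in pregnant lung 23. Their log2 summed level was 9.55 to 9.65 on virgin and 9.47 to 9.53 on pregnant lung arrays. That sum rests largely on Elf5, the highest of the 29, at 8.72 in virgin and 8.47 in pregnant lung. It therefore says little about the rest of the list. The spongiotrophoblast marker Tpbpa read 2.61 and 2.63 in virgin and pregnant lung, and its relative Tpbpb 4.24 and 4.53, a difference of 0.30 (limma, adjusted p = 0.278). Ceacam11 differed by 0.33 (limma, adjusted p = 0.289).

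Of 15 decidua genes 14 were measured and 0 were called in lung (limma; 1 had an unadjusted p under 0.05), with a median lung difference of -0.03. Bmp2, a growth factor of the decidual reaction, differed by 0.30 (limma, adjusted p = 0.220). The log2 summed level of the list was 12.5 to 12.6 on virgin and 12.5 to 12.7 on pregnant lung arrays, and only 4 of the 14 had a virgin lung mean below the array medians. That sum rests largely on Cryab, Gja1 and Dcn, at 11.17, 10.66 and 10.32 in virgin lung and 11.25, 10.60 and 10.29 in pregnant lung. It therefore says little about the rest of the list. In liver 1 fell: Wnt4, a signalling ligand, by 0.70 on the log2 scale (limma, adjusted p = 0.00322). Taken as the mean of all its probe sets, Wnt4 fell by 0.40 (limma, adjusted p = 0.0231).

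Of 10 pituitary genes 8 were measured and 0 were called in lung (limma; 1 unadjusted), with Tshb at -0.67 (adjusted p = 0.232). In liver Cga, the alpha subunit shared by glycoprotein hormones, rose by 1.72 (limma, adjusted p = 7.70e-06). All 12 mammary genes were measured and 0 were called in lung (limma; 0 unadjusted), while in liver the keratin Krt18 rose by 0.45 (limma, adjusted p = 0.0138), with an adjusted p of 0.0615 without virgin liver pool 2. Of 14 lung epithelium genes 13 were measured and 0 were called in lung (limma; 0 unadjusted), and in liver Cyp2f2, a cytochrome P450 of airway club cells and liver, fell by 0.71 on the log2 scale (limma, adjusted p = 0.000112). Of 12 hepatocyte genes 10 were measured and 0 were called in either tissue (limma; 3 unadjusted in each), with Fgb at 0.42 (adjusted p = 0.0710) and Serpinc1 at 0.38 (adjusted p = 0.182) in lung.

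**Figure D5:**
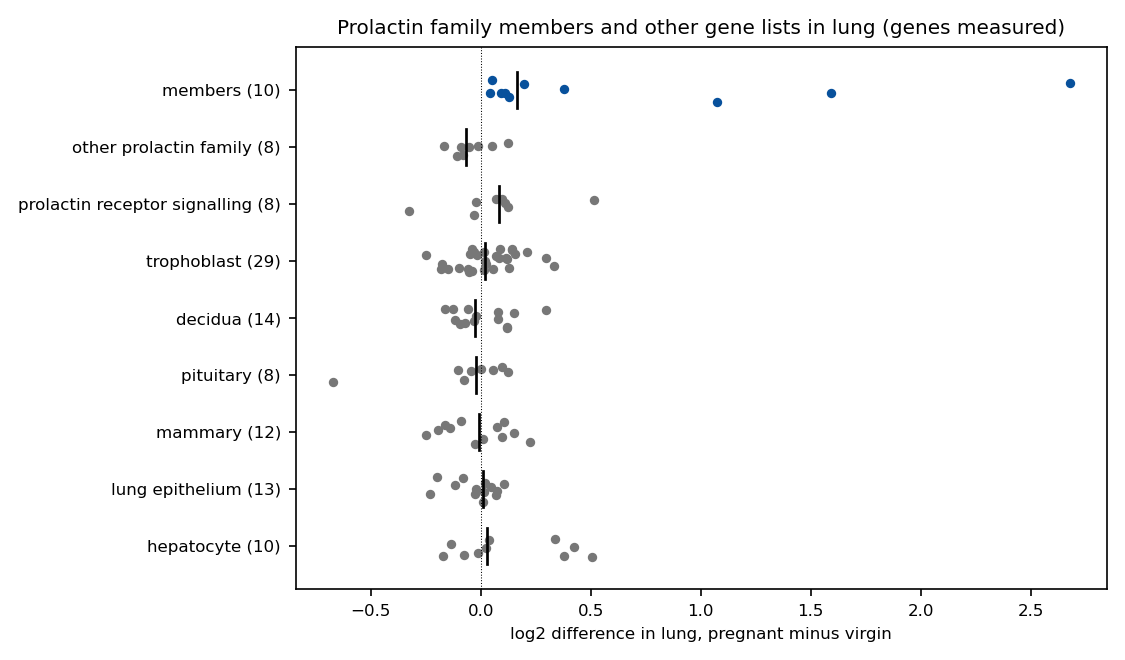
Pregnant minus virgin difference in log2 level in lung (horizontal axis) for each measured gene of each list (points), with the median of the list as a black bar. The medians of the lists lie near 0, and Prl8a2, Prl7b1 and Prl2a1 stand above all genes of the other lists. Lung values chose the members, so their place in this figure is a description only.

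The genes whose 12 centred log2 values lay nearest to those of Prl8a2 by root mean square difference were Fst at 0.441, Prl7b1 at 0.564, Adm at 0.652, Mmp13 at 0.654 and Tcim at 0.669. Fst, the gene of follistatin (an inhibitor of activin), had virgin and pregnant means of 4.85 and 6.74 in lung and of 5.23 and 4.56 in liver. Adm, which encodes the vasodilator peptide adrenomedullin, had 6.56 and 7.65 in lung and 6.14 and 5.85 in liver. Mmp13, a collagenase, had 2.94 and 3.95 in lung and 2.82 and 2.56 in liver. Tcim had 9.96 and 10.81 in lung and 9.60 and 9.94 in liver. These are descriptions of likeness over 12 arrays and were not tested.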

How the data were processed

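The data are 12 Affymetrix mouse arrays of a single colour, 3 pools for each of 4 groups. The deposited values are log2 levels that the authors computed with RMA in the affy package, per the submitters' processing notes, which give no versions; which arrays were normalized together is not given in the sources used here. Of 45101 probe sets, 64 array controls were dropped. The platform annotation gave 34945 of the remaining probe sets 1 symbol, 932 several and 9160 none. The probe set with the highest mean stood for its gene in the gene tests.

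Group means were estimated from all 12 arrays in a single limma fit (limma 3.58.1, R 4.3.3), with Benjamini-Hochberg adjustment over all genes or all probe sets and a threshold of 0.05. The fit was tested on simulated data. Members, gene lists and tests were chosen with earlier results of these data known. All members were named, up to 4 called genes of each list (up to 2, by smallest p, in a list without calls) and the 5 genes nearest to Prl8a2. Genes named beyond this (Tpbpa, Alb, Elf5, Cryab, Gja1, Dcn) were chosen after their values were seen. Alternatives were other normalization, probe set choice, filters, moderation, blocks and arrays left out. The alternatives for Ghr, Cish, Wnt4, Cga, Krt18 and Cyp2f2 were chosen after seeing the data. Promoter windows came from RefSeq (GRCm38.p6).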

Additional observations from a re-analysis of the deposited data

Results flagged for a closer look

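A prolactin family probe set stood for no gene, since the annotation gives it 4 symbols. It read 3.18, 3.18 and 3.26 in pregnant lung against a virgin mean of 2.74 ± 0.19 (SD, n = 3). Its pregnant mean was 3.20, its lung difference of 0.46 was not called (limma, adjusted p = 0.121), and in liver it differed by -0.10 (limma, adjusted p = 0.676). It drew attention because it holds signal outside the values used for named genes and the pregnant pools lay above the virgin ones. In lung 7.24% of all probe sets had all pregnant arrays above all virgin ones. Another family probe set, with 5 symbols, overlapped between virgin and pregnant pools in both tissues. That probe set differed by 0.06 in lung (limma, adjusted p = 0.997) and by 0.30 in liver (limma, adjusted p = 0.264).

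For 4 listed genes the pregnancy change differed between tissues in the limma interaction test. The change in lung minus that in liver was 0.58 for Bmp2 (limma, adjusted p = 0.0148), 0.81 for Cyp2f2 (limma, adjusted p = 0.0014), -1.66 for Cga (limma, adjusted p = 0.000532) and -1.36 for Ghr (limma, adjusted p = 9.26e-06). Members were left out of this test, since their lung values chose them.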

How the results depend on the processing

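The lung differences of the members moved by less than 1 SD between lung pools in 161 of 162 repeats. The exception was Prl8a2 under quantile normalization (2.54 against 2.68). With 3 pools a group, leaving out 1 array cannot move a difference by more than that SD. Many other repeats, such as other moderation or liver arrays left out, do not change a lung difference. The count is therefore no measure of stability. Leaving out 1 lung array gave 2.64 to 2.72 for Prl8a2, 1.20 to 1.98 for Prl7b1 and 0.78 to 1.23 for Prl2a1, and quantile normalization gave 1.56 for Prl7b1 and 1.02 for Prl2a1. The small lung differences of Prl4a1, Prl6a1 and Prl2b1 reached -0.06, -0.05 and -0.01 with 1 array left out. A filter on dim probe sets, which asked for 3 arrays above their median, kept only Prl8a2 and Prl2a1 of the members. Both passed through the 3 pregnant lung arrays alone. Those arrays took part in the choice of members, so nothing is read from their passing. In liver the call for Prl8a9 changed, to an adjusted p of 0.0336 with the liver pool 3 arrays as a block and 0.0330 with trend and robust moderation, beside those without pool 3. Liver differences of uncalled members changed sign at small size: without both pool 3 arrays Prl8a2 was -0.0351 and Prl8a1 0.0582, and without suffixed probe sets Prl8a1 was 0.0221. Leaving out 1 liver array gave -0.158 to 0.0344 for Prl7b1, -0.0394 to 0.303 for Prl2a1, -0.143 to 0.0636 for Prl7d1, -0.0492 to 0.242 for Prl7c1, -0.0013 to 0.178 for Prl4a1 and -0.162 to 0.0844 for Prl8a1. Genes called in liver numbered 2482, 1557 with the liver arrays alone and 1321 at an adjusted p under 0.01. They numbered 1879 to 2541 with 1 array left out and 2146 without both liver pool 3 arrays. Genes called in lung numbered 108, 207 with trend and robust moderation, 22 at 0.01 and 26 to 105 with 1 array left out (26 without virgin pool 2, 36 without virgin pool 3, and 50 without either pregnant pool 1 or pregnant pool 2). The cause of these moves was not tested. Liver probe sets called numbered 3675, and 2652 to 3773 with 1 array left out. With fits on the arrays of 1 tissue, Cish and Krt18 lost their call (adjusted p = 0.0954 and 0.0560). Same-numbered arrays correlated at -0.083 to 0.114 after group means were removed, and 1 of 3 correlated best with its own number in each pair of groups. The highest value, 0.114, was that of the liver pool 3 arrays, which both lacked the spike-in signal. Weak correlations of 3 arrays a group cannot exclude shared mice or handling. Pairing by pool number was thus not settled. A replicate block by pool number gave 2391 liver genes, 111 lung genes and 3411 liver probe sets and changed no call of a member. Array medians near 4.5 set what dim probe sets can show.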
